A study of Astyanax mexicanus with 78 samples.

Results

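Aging of the surface fish heart was examined by comparing RNA sequencing libraries of aged and young hearts of *Astyanax mexicanus*, across all genes of the heart count table. The comparison used 8 of the 78 libraries of the series, 4 from aged surface fish (replicates 5 to 8, 7 to 8 years old) and 4 from young surface fish (replicates 1 to 4, about 1 year old). The surface fish is the eyed, river-dwelling form of the Mexican tetra, a species that also has blind cave populations such as the Pachón cavefish. The study sequenced brain, gut, heart, liver and muscle of both forms, young and aged. Hearts were dissected in the first hours of the light phase from at least 4 fish of each group, messenger RNA was selected by its poly-A tail, and the labels give neither the sex of the fish nor whether tissues with the same number came from the same fish. The table held 19076 genes, of which 14761 received an adjusted p. Because some heart libraries carried liver transcripts, the 956 genes whose median CPM (counts scaled to a common library total) was at least 4 times higher in the liver table than in the heart table are described apart from the other 18120. They are called liver-high genes here.

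The fish heart is a chain of sinus, atrium, ventricle and an elastic outflow chamber, the bulbus arteriosus, and its working cells are cardiomyocytes that burn fatty acids, lactate and glucose to drive contraction. Cardiomyocytes switch between fuels by gating the oxidation of pyruvate in mitochondria and by the activity of transcriptional coactivators such as PGC-1α. Fibroblasts, endothelium, nerves and blood cells fill the rest of the organ, so a bulk library averages over all of them. In such libraries a smaller share of cells of one type and less RNA per cell of that type cannot be told apart.

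The libraries held between 9011568 and 13256561 counts, with 11941710.5 on average in aged hearts and 9985488.5 in young hearts (exact two-sided permutation p = 0.0857, where 0.0286 is the smallest value that 4 against 4 libraries allow). Replicates of a group differed by more than counting noise in every pair, with a chi-square per degree of freedom between 34.2 and 272. The cardiac light chain gene *myl7*, a defining marker of cardiomyocytes, stood at 67334, 59572, 109490.0 and 41901 normalized counts in aged hearts, against 201320.0, 93640.0, 94698 and 45942 in young hearts (a normalized count is a raw count divided by the DESeq2 size factor of its library). Young replicate 1 had the smallest size factor, 0.607 at 9712286 counts, so that its normalized counts run high relative to its CPM.

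Liver transcripts were unevenly spread over the hearts. A set of 124 liver-specific genes (median of at least 100 CPM in liver and at least 16 times any other tissue) took 0.244%, 0.105%, 5.03% and 16.4% of the counts in aged hearts 5 to 8, against 0.302%, 0.0770%, 0.0945% and 1.84% in young hearts 1 to 4. The difference between the ages was smaller than the spread among aged hearts (exact permutation p = 0.286). Aged hearts 7 and 8 and young heart 4 were therefore the libraries to leave out in a repeat of each count. Of the hepatocyte markers listed for the analysis, 8 genes carried a symbol, and their summed level ranged from 63.7 to 1882 CPM in aged hearts and from 27.1 to 157 CPM in young hearts.

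Most of the variation between libraries did not follow age. The first principal component of the 500 most variable genes held 56.2% of the variance, with the highest scores in aged hearts 7 and 8 (51.1 and 54.9), and its scores did not separate the ages (exact p = 0.286). Without the liver-high genes the first component held 39.6% of the variance and did not separate the ages (exact p = 0.571). Its highest scores were those of young heart 4 (37.9) and aged heart 8 (31.6). The second component, with 25.5% of the variance, placed all 4 aged hearts (6.89, 22.4, 27.2 and 6.53) above all 4 young hearts (-21.5, -18.6, -5.96 and -16.9). Its exact p was 0.0286, the smallest this design allows, and 0.0857 after adjustment over the 6 components tested.

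Across all genes, 419 of 14761 (2.84%) differed between aged and young hearts at a DESeq2 adjusted p under 0.05, with 247 (1.67%) higher and 172 (1.17%) lower in aged hearts. The median size of the change among them was 2.48 on the log2 scale, and 410 changed by more than 1. Liver-high genes made up 79 of the genes that were higher and 2 of those that were lower, which left 168 higher and 170 lower among all other genes. Size factors proportional to total counts shifted the median change of all genes from near 0 to 0.15 and gave 285 higher and 103 lower. The quasi-likelihood test of edgeR, which estimates the spread of each gene more cautiously, called 20 of 12426 genes (0.161%), 7 higher and 13 lower, and each of the 20 was also called by DESeq2 and was not liver-high. Leaving out the 3 libraries with over 1% liver-specific counts kept aged hearts 5 and 6 and young hearts 1, 2 and 3. That fit gave 544 calls by DESeq2 (4.14% of 13134), 235 higher (1.79%) and 309 lower (2.35%). Of these 544 calls, 204 were shared with the calls from all 8 libraries. By edgeR the same libraries gave 8 calls among 12889 genes tested. Each adjusted p given below without the 3 libraries rests on these few hearts.

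**Figure D1:**
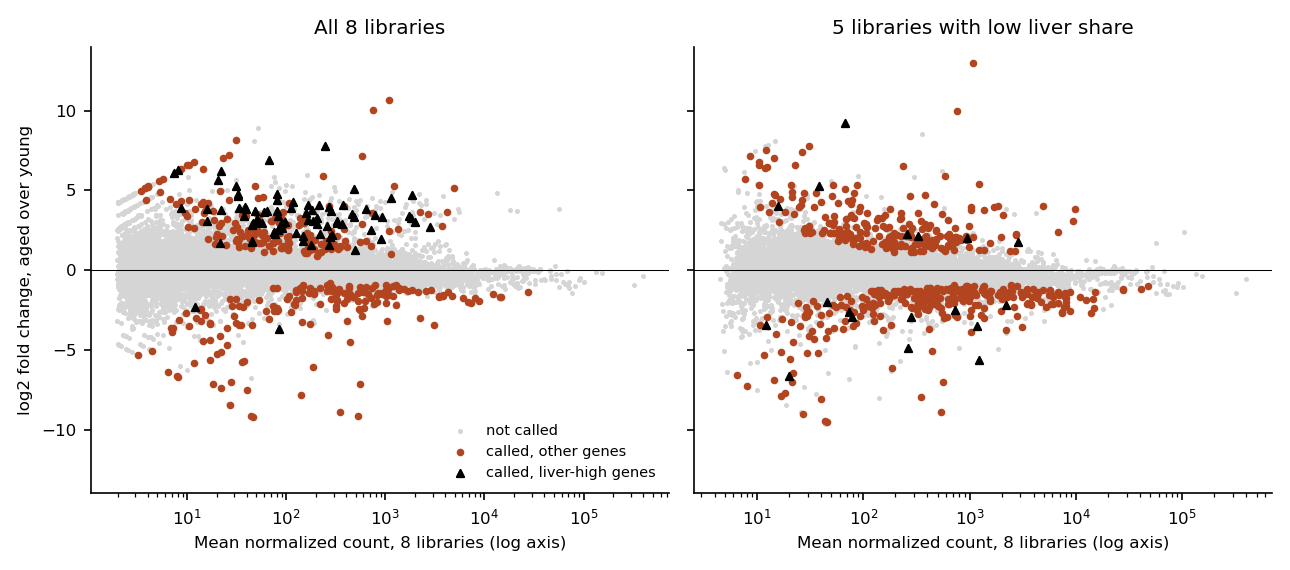
Log2 fold change of aged over young surface hearts (y axis) against the mean normalized count over 8 libraries (x axis, log scale), one point per gene tested, with all 8 libraries (left) and without aged hearts 7 and 8 and young heart 4 (right). Liver-high genes that were called (triangles) number 79 above 0 and 2 below on the left, and 7 above and 11 below on the right.

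The liver-high genes that were called higher mostly peaked in libraries that carried liver transcripts. Aged heart 7 was the highest library for 52 and aged heart 8 for 23 of the 79 that were higher in aged hearts, and without the 3 libraries 7 liver-high genes were higher and 11 were lower. The median change of all 710 liver-high genes with an adjusted p was 2.17 with 8 libraries and -0.36 without the 3. Those 3 libraries were picked for their share of liver-specific genes, which are high in liver by definition. A fall of this median without them was therefore largely set by that choice. The called genes with the largest rises and a symbol showed the same profile. *IYD*, an iodotyrosine deiodinase, had 14.7, 8.53, 116 and 482 normalized counts in aged hearts 5 to 8, against 14.8, 0.969, 6.14 and 1.07 in young hearts 1 to 4. *papss2a*, a sulfate-donor synthase, had 4.21, 5.97, 153 and 89.9 in aged hearts, against 6.59, 0, 3.07 and 0 in young hearts. In both genes aged hearts 5 and 6 lay within the range of the young hearts, while aged hearts 7 and 8 stood far above. *slc5a8l*, *sb:cb1058* and *zgc:158258* rose by 5.29, 4.27 and 3.90 on the log2 scale in the fit with 8 libraries, and their changes without the 3 libraries were 1.52, 0.00 and 0.01. The part that liver tissue plays in each of these changes was not tested.

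**Figure D2:**
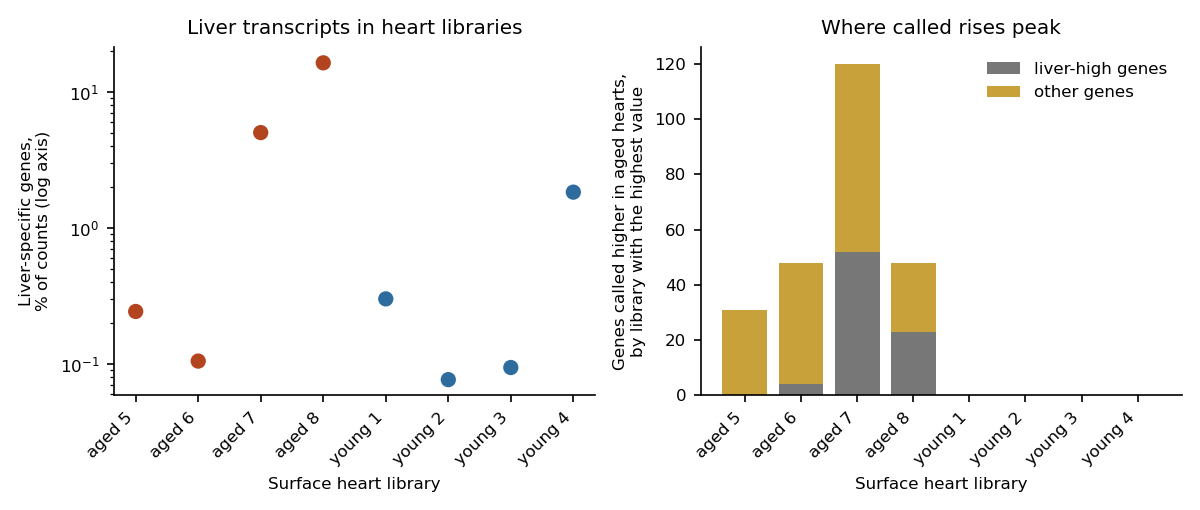
Share of counts in 124 liver-specific genes for each surface heart library (left, log axis), and the number of genes called higher in aged hearts whose highest normalized count lies in each library (right, bars, liver-high and other genes stacked). Aged heart 8 reaches 16.4% and young heart 4 reaches 1.84%, and aged hearts 7 and 8 hold the highest value for 75 of 79 liver-high genes and for 93 of 168 other genes.

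Some liver-high genes were also higher in the aged hearts with little liver RNA. *slc7a2*, a transporter of cationic amino acids chosen here after its values were seen, had 395, 339, 890.4 and 699 normalized counts in aged hearts, against 138, 39.7, 74.7 and 50.5 in young hearts. The groups did not overlap, and the rise of 2.95 ± 0.51 (log2, SE) had an adjusted p of 3.18e-06, and 0.00746 without the 3 libraries. *ghra*, a growth hormone receptor gene, also showed no overlap, with 231, 289, 530.5 and 581 in aged hearts, against 175, 188, 69.6 and 106 in young hearts (adjusted p = 0.0311, and 0.457 without the 3 libraries). Close to the threshold, *junbb* lay just inside at 4.29 times the heart median, and *slc25a25a* and *klf15* lay just outside at 3.75 and 3.39 times.

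Among all other genes, 281 of the 338 calls showed no overlap between the 4 aged and the 4 young hearts, where 7.14% of all genes tested showed none. Of these calls, 49 carried a gene symbol, since symbols were at hand for 2080 of the 19076 genes, drawn from the study's gene lists for irradiated larvae. The named genes therefore lean towards genes that respond to ultraviolet light.

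The gene with the strongest rise by adjusted p was *enpp6*, a choline-specific phosphodiesterase that cleaves lysophospholipids. It had 2356, 3042, 2711 and 1423 normalized counts in aged hearts, against 106, 47.5, 44.0 and 49.4 in young hearts. Even the lowest aged heart exceeded the highest young heart by a wide margin. The log2 rise was 5.29 ± 0.41 (SE), with an adjusted p of 1.19e-33 by DESeq2 and 0.00253 by edgeR, and it was 5.38 without the 3 libraries.

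*unc5b*, a netrin receptor that guides growing vessels and axons, was the other named rise that edgeR called. It had 113, 224, 156 and 105 normalized counts in aged hearts, against 9.89, 18.4, 22.5 and 10.7 in young hearts, a rise of 3.26 ± 0.46 (DESeq2 adjusted p = 2.56e-09, edgeR adjusted p = 0.0288). *tjp2a*, a scaffold protein of tight junctions, had 172, 66.6, 287 and 127 in aged hearts, against 9.89, 23.3, 32.8 and 32.2 in young hearts (2.71 ± 0.56, adjusted p = 2.64e-04). Both genes stayed under the adjusted threshold of DESeq2 whichever single library was left out.

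Among the other named rises, *agmo*, which cleaves ether lipids, had 54.7, 69.1, 207 and 71.9 normalized counts in aged hearts, against 21.4, 20.4, 14.3 and 19.3 in young hearts (2.42 ± 0.54, adjusted p = 0.0013). *scp2a*, a peroxisomal lipid carrier, had 465, 499, 991 and 441 in aged hearts, against 275, 229.8, 170.0 and 199 in young hearts (1.46 ± 0.37, adjusted p = 0.00889). For both genes aged heart 7 stood above the other aged hearts, and neither passed the threshold without the 3 libraries (adjusted p = 0.0764 and 0.0614). Their medians were 21.2 and 132 CPM in the liver table, against 6.46 and 40.5 CPM in the heart table. With the liver share as a covariate *agmo* was called (DESeq2 adjusted p = 0.0271) and *scp2a* was not (0.0679). *slco2b1*, an organic anion transporter, had 484, 736, 909 and 307 in aged hearts, against 138, 150.3, 128 and 276 in young hearts, and its rise of 1.81 ± 0.45 was 2.13 without the 3 libraries. The summed level of 7 adipocyte markers, 3 of them liver-high, ranged from 231 to 516 CPM in aged hearts and from 114 to 154 CPM in young hearts, without overlap. Its largest part was *lpl*, at 204.6, 278.8, 281.7 and 124 CPM in aged hearts, against 111.6, 97.46, 93.39 and 78.68 CPM in young hearts. *plin2* reached 203.6 and 90.52 CPM in aged hearts 7 and 8, with 2.656 and 5.421 CPM in aged hearts 5 and 6. *cidec* overlapped, at 4.426 to 11.84 CPM in aged hearts and 6.365 to 16.39 CPM in young hearts. Of the 6 markers tested, 5 had a positive and 1 a negative change. The median change of the 6 was 1.86, with *dgat2* called, and -0.72 without the 3 libraries, with none called. The summed level of 4 thrombocyte markers ranged from 375 to 711 CPM in aged hearts and from 121 to 306.5 CPM in young hearts, also without overlap and with none called. The single markers did overlap. *thbs1a* was at 57.78 to 600.6 CPM in aged hearts and 48.8 to 101 CPM in young hearts. *thbs1b* was at 85.61 to 402 CPM and 41.91 to 171.8 CPM, and *bin2b* at 24.51 to 83.73 CPM and 30.68 to 108.1 CPM. Aged heart 5 was highest in *thbs1b*, and aged heart 7 in *thbs1a*. The part of either cell type in the changes of single genes was not tested.

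Of the named rises with a role in regulation, *klf15* encodes a Krüppel-like factor that in mammalian heart drives genes of fuel metabolism. It had 173, 173, 203 and 105 normalized counts in aged hearts, against 42.9, 77.6, 41.0 and 25.8 in young hearts (1.80 ± 0.43, adjusted p = 0.0035). A second gene with the symbol *KLF15* rose by 0.53 on the log2 scale without passing the test (adjusted p = 0.52). *ace*, the angiotensin-converting enzyme, had 328, 281, 318 and 438 in aged hearts, against 72.5, 66.9, 65.5 and 241 in young hearts. Young heart 4 stood apart from the other young hearts. The adjusted p was 0.0481 with it and 1.28e-06 without the 3 libraries with liver transcripts, of which young heart 4 is 1. The median of *ace* was 6.53 CPM in the liver table and 13.4 CPM in the heart table, and the part of liver RNA in its values was not tested. The rise of *ace* was called in 1 of the 8 fits that left out a single library. It was called neither by DESeq2 with the liver share as a covariate (adjusted p = 0.107) nor by edgeR (adjusted p = 0.279). *niban1b*, a stress-induced gene, had 1074, 1406, 963 and 818 in aged hearts, against 335, 264, 272 and 649 in young hearts (1.49 ± 0.39, adjusted p = 0.012). It was called in 5 of the 8 fits that left out a single library, and its DESeq2 adjusted p with the covariate was 0.053.

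The remaining named rises were *C11orf96*, *lsp1a* and *ampd2a*. *lsp1a*, an actin-binding protein of leukocytes, had 243, 468, 722 and 679.6 normalized counts in aged hearts, against 147, 88.2, 103 and 147 in young hearts (2.12 ± 0.42, adjusted p = 1.45e-04). The listed leukocyte markers gave little to set beside it: 2 had a symbol, with a summed level from 14.004 to 193 CPM in aged hearts and from 7.56 to 54.7 CPM in young hearts, and their part in this rise was not tested. *MFAP4*, which is liver-high, was at 0.5633, 0.6324, 67.91 and 181 CPM in aged hearts 5 to 8, and at 18.42 CPM in young heart 4. *cxcr4a* was at 82.56, 13.37, 3.45 and 11.69 CPM in aged hearts, against 5.354 to 36.29 CPM in young hearts. *ampd2a*, an AMP deaminase, rose by 1.62 ± 0.49 (adjusted p = 0.0422) and *C11orf96* by 2.60 ± 0.63 (adjusted p = 0.00435). The rise of *ampd2a* was called in 3 of the 8 fits that left out a single library, and not with the liver share as a covariate (DESeq2 adjusted p = 0.12). *C11orf96* was highest in aged heart 7, at 5596 normalized counts with the other aged hearts between 535 and 1511.5, and without the 3 libraries its change was 1.54 and not called (adjusted p = 0.0774). Nor was it called with the liver share as a covariate (DESeq2 adjusted p = 0.0647).

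Lower expression in aged hearts included genes of fuel choice, cell junctions and membrane contacts. *pdk4*, the kinase that shuts pyruvate dehydrogenase and so favours fatty acids over glucose, had 3439, 3440.4, 4849.6 and 3235 normalized counts in aged hearts, against 18151, 12308, 11550.0 and 7468 in young hearts. The groups did not overlap, and the gene fell by 1.73 on the log2 scale (SE 0.34, adjusted p = 1.57e-04). In CPM the aged hearts were at 394.9, 364.2, 397.6 and 298.7, against 1134, 1137, 1122 and 771.8 in young hearts. *ppargc1a*, which encodes the coactivator PGC-1α that drives mitochondrial genes, had 444, 478, 1075 and 346 normalized counts in aged hearts, against 2883, 1425, 1980.2 and 905 in young hearts. It fell by 1.62 on the log2 scale, with an adjusted p of 0.0429, and of 7.89e-06 without the 3 libraries.

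*xirp2a*, an actin-binding Xin repeat protein of the junctions between cardiomyocytes, had 3973, 6553, 7484 and 8098 normalized counts in aged hearts, against 24649, 15969, 17934 and 14027 in young hearts. It fell by 1.48 on the log2 scale (SE 0.34, adjusted p = 0.00173) and passed the threshold with each single library left out. *jph1b*, a junctophilin that holds the sarcoplasmic reticulum to the plasma membrane, had 587, 943, 894 and 711 in aged hearts, against 1762, 1849, 1368 and 1349 in young hearts (log2 change -1.01 ± 0.28, adjusted p = 0.0167). Its change was -1.12 without the 3 libraries (adjusted p = 0.0587) and -0.85 with total-count factors (adjusted p = 0.138), and neither was called. *sorbs3*, the focal adhesion adaptor vinexin, fell by 1.03 on the log2 scale (adjusted p = 0.0316) and was called in 2 of the 8 fits that left out a single library.

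Other genes with a symbol fell as well. *spsb4a*, a substrate adaptor of ubiquitin ligases, had 112, 66.6, 186 and 181 normalized counts in aged hearts, against 654, 602, 545 and 267 in young hearts (-1.92 ± 0.45, adjusted p = 0.00224). *zmiz1a*, a transcriptional coactivator, had 104, 98.2, 117 and 121 in aged hearts, against 376, 236, 243 and 223 in young hearts (-1.29 ± 0.29, adjusted p = 0.0017). *rnf24*, a RING finger gene, had 88.3, 68.3, 84.2 and 92.3 in aged hearts, against 186, 244, 202 and 176 in young hearts (-1.28 ± 0.27, adjusted p = 4.41e-04). These 3 genes were called in every fit that left out a single library. The other falls under the naming rule were *EML6*, *lrrfip2*, *sbk3*, *clic3*, *ptp4a3a* and *aatka*, between -2.54 and -1.02 on the log2 scale, with adjusted p between 0.00471 and 0.038. Without the 3 libraries *clic3* (0.146) and *aatka* (0.15) were not called, and *ptp4a3a* was called in 1 of the 8 fits that left out a single library. In those 8 fits *aatka* was called in 2, *clic3* in 3, *lrrfip2* in 4, *sbk3* in 6 and *EML6* in 7. *shank1*, a scaffold of excitatory synapses, had fewer counts but little spread, at 2.80, 5.12, 2.21 and 4.90 in aged hearts, against 36.3, 38.8, 56.3 and 56.9 in young hearts. It fell by 3.64 on the log2 scale and was called by DESeq2 (adjusted p = 3.77e-08) and by edgeR (adjusted p = 0.0288).

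**Figure D3:**
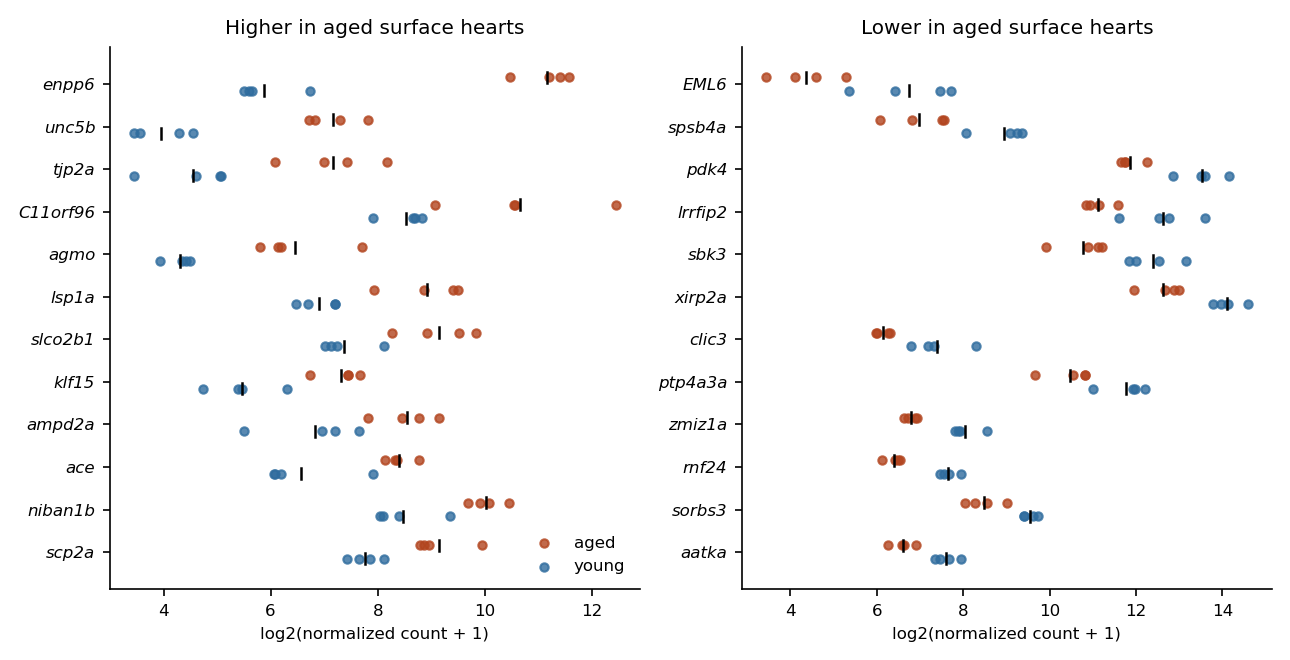
Normalized counts of the 12 largest rises (left) and 12 largest falls (right) among named genes that are not liver-high, as log2(normalized count + 1), with one point per library, aged above young in each row, and a bar at the mean of 4 libraries. In each row the 4 aged and 4 young points do not overlap, which the naming rule required.

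Among called genes without a symbol, those with a mean of 50 or more normalized counts, no overlap and the largest fitted changes were as follows. ENSAMXG00000037084 had 2.80, 1.71, 3.32 and 0 normalized counts in aged hearts, against 1609, 492, 1200.0 and 965 in young hearts (-9.12 ± 0.69, DESeq2 adjusted p = 3.97e-36, edgeR adjusted p = 0.00253). ENSAMXG00000030472 had 1.40, 4.27, 0 and 0 in aged hearts, against 1032, 258, 812 and 684 in young hearts (-8.89 ± 0.80, adjusted p = 8.29e-25). In the other direction ENSAMXG00000009106 had 366, 634, 64.2 and 3590.1 in aged hearts, against 8.24, 16.5, 0 and 7.52 in young hearts. ENSAMXG00000037024 had 87.6, 6659.7, 1873 and 21.2 in aged hearts, against 0, 0.969, 0 and 4.29 in young hearts. Aged hearts 5 and 8 were far below aged hearts 6 and 7. Of the 419 calls, 7 genes had no count in any aged heart and 14 had none in any young heart. Set against a floor of 3 counts over the silent group, these were at least 9.17-fold to at least 130-fold lower and at least 8.36-fold to at least 82.2-fold higher in aged hearts.

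Of the 20 genes that edgeR called, 17 had no symbol. The 2 of them with no count in any aged heart were at least 125-fold and at least 130-fold lower, and the log2 changes of the other 15 lay between -9.12 and 7.24. Abundant ones among them were chosen after their values were seen. ENSAMXG00000029963 had 6202, 7226, 6689 and 6908 normalized counts in aged hearts, against 27754, 24574, 18763 and 17128 in young hearts (-1.71 ± 0.25, edgeR adjusted p = 0.0251). ENSAMXG00000042326 had 667, 413, 415 and 578 in aged hearts, against 5973, 4620.3, 8644 and 3603 in young hearts (-3.46 ± 0.37, edgeR adjusted p = 0.0112).

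The gene lists of heart function were described by counts and medians, beside a median of 0.00 over all genes tested and calls in 1.67% of them upward and 1.17% downward. Of 9 genes of the cardiac sarcomere with a symbol, *xirp2a* fell and none rose, with a median change of -0.35. Of 6 genes of calcium handling, *jph1b* fell and none rose (median -0.36). None of the 3 cardiac transcription factor genes (*mef2aa*, *MYOCD* and *gata6*) and none of the 4 genes of ion channels passed the test. Among the last, *atp1a1a.4*, a sodium pump subunit, was at -1.64 (adjusted p = 0.363), and at -3.46 without the 3 libraries (adjusted p = 9.22e-09). Of 19 extracellular matrix genes tested none was called, with a median of -0.10 and *col4a1*, *col4a2* and *dcn* at -0.61, -0.26 and -0.10. *fn1a*, fibronectin, had 296, 744, 216 and 1524 normalized counts in aged hearts, against 54.4, 97.9, 128 and 782 in young hearts, with an adjusted p of 0.473, and of 0.00129 without the 3 libraries.

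Of the genes of energy metabolism few passed the test, with 0 of 12 called in glycolysis, 0 of 3 in the tricarboxylic acid cycle, 1 of 14 in the respiratory chain and 2 of 8 in fatty acid oxidation. All 12 glycolytic genes tested had a negative log2 change, with a median of -0.59, and none was called. The summed level of the list was 15140, 16870, 14640 and 8235 CPM in aged hearts, against 27400, 23930, 18810 and 17120 CPM in young hearts, without overlap. *gapdh* had 45899, 46820.0, 50147 and 20281 normalized counts in aged hearts, against 214750.0, 103850.0, 72905 and 50453 in young hearts (-1.44 ± 0.51, adjusted p = 0.102). With total-count size factors, and likewise with TMM factors, 11 of the 12 stayed negative, as they did without the 3 libraries, where the median was -0.72.

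Of 14 genes of the respiratory chain and ATP synthase, 13 had a negative change (median -0.66), and *ndufa4* was called lower (adjusted p = 0.0486) with overlapping groups. That call was lost with TMM factors (0.0541), with size factors from genes that are not liver-high (0.0521), with total-count factors (0.0763) and without the 3 libraries (0.113). The most abundant, *atp5f1b*, had 22693, 31805, 43735 and 20168 normalized counts in aged hearts, against 68060.0, 43844, 38662 and 28992 in young hearts (adjusted p = 0.521). The 3 genes of the tricarboxylic acid cycle, *mdh2*, *mdh1aa* and *suclg1*, were at -0.65, -0.83 and -0.47. Of 8 genes of fatty acid oxidation tested, *pdk4* and *ppargc1a* fell and none rose, with 4 positive and 4 negative changes and a median of -0.09. That median was -0.84 without the 3 libraries, with 3 positive and 5 negative changes. With total-count factors it was 0.20, and 1 gene was called higher. *cpt1b*, the carnitine shuttle enzyme of muscle, did not overlap between the ages (2738 to 3600.4 in aged hearts, 4006 to 8668 in young hearts) at an adjusted p of 0.211. The summed level of the respiratory chain list was lowest in aged heart 8 (5062 CPM), which also had the highest liver share, and the part of liver RNA in these medians was not tested. Without the 3 libraries the median over the respiratory chain was -0.97 and *cox5ab* was called lower (adjusted p = 0.0439).

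By contrast, 37 genes of cytosolic ribosomal proteins had a median of 0.04 with none called, and it was 0.20 with total-count factors, where 1 gene was called higher. The median was positive under each scaling tried and -0.05 without the 3 libraries. Of 15 genes of heat shock and proteostasis, of 11 of the DNA damage response and of 5 cell cycle genes tested, none was called. In the DNA damage list *gadd45ga* had 299, 141, 190.5 and 404 normalized counts in aged hearts, against 3012, 415, 1132 and 269.5 in young hearts (adjusted p = 0.0551, and 0.00814 without the 3 libraries).

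In the circadian list, *rorc*, a ROR-family nuclear receptor, had 172, 190.3, 179 and 12.3 normalized counts in aged hearts, against 19.8, 8.72, 21.5 and 7.52 in young hearts. Aged heart 8 lay inside the young range, and the rise was 3.28 ± 0.75 (adjusted p = 0.00192). The other 6 clock genes, including *per2* and *cry1a*, were not called. The summed level of the list was 705.9, 580.1, 502.3 and 500.8 CPM in aged hearts. In young hearts it was 432, 432.6, 447.2 and 400.7 CPM, without overlap. Sums also did not overlap for the glycolysis, adipocyte and thrombocyte lists and for the immediate-early genes described below. The sums of all other lists overlapped between the ages. In the antioxidant list 3 of 19 genes tested rose and none fell. *gpx1b*, a glutathione peroxidase, had 171, 218, 321 and 274 in aged hearts, against 124, 114, 65.5 and 103 in young hearts (1.28 ± 0.35, adjusted p = 0.0178). The other 2 share the symbol *gstt1b*, are liver-high, and none of the 3 was called without the libraries with liver transcripts. In the insulin and growth list *klf15*, *ghra* and *igfbp1a* rose among 20 genes tested, of which the last 2 are liver-high. The only endothelial marker with a symbol, *fli1a*, did not differ detectably (2033, 2077, 1803 and 1681 in aged hearts, 2169.5, 1938, 2464 and 1539.7 in young hearts).

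Immediate-early genes, which encode transcription factors such as the AP-1 dimer and are switched on within minutes of a stimulus, formed a group that was picked after their values were seen. Of 24 such genes tested, each had a positive log2 change (median 1.36), and 7 were called higher in aged hearts: *fosab*, *junbb*, *NR4A1*, *socs3a*, *jund*, *jdp2b* and *maff*. Over all genes tested, 49.7% had a positive change and 1.67% were called higher. Among genes tested with a symbol these shares were 52.7% and 2.54%. *fosab*, the Fos subunit of AP-1, had 2180.5, 6759.6, 29095 and 272 normalized counts in aged hearts, against 430.3, 56.2, 347 and 242 in young hearts (5.16 ± 1.00, DESeq2 adjusted p = 7.42e-05, edgeR adjusted p = 0.228). Aged hearts 5, 6 and 7 were above every young heart, whereas aged heart 8 was within the young range. *NR4A1*, an orphan nuclear receptor, had 180.1, 14535, 16122 and 337 in aged hearts, against 577, 314, 996 and 609 in young hearts. Here aged hearts 6 and 7 alone were high, and aged heart 5 was below all young hearts.

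The partners of Fos varied in the same libraries. *jund* had 417, 2563, 4082 and 320.2 normalized counts in aged hearts, against 239, 328, 466 and 329.6 in young hearts (2.44 ± 0.73, adjusted p = 0.0375). *junbb* had 1339, 4500.4, 12598 and 1249.8 in aged hearts, against 986, 618, 925 and 492 in young hearts (2.70 ± 0.70, adjusted p = 0.00894), without overlap. *socs3a*, a feedback inhibitor of cytokine signalling, had 823, 2753, 15935 and 558 in aged hearts, against 384, 136, 653 and 544 in young hearts (3.55 ± 0.91, adjusted p = 0.0081). *maff*, a small Maf factor, did not overlap between the ages, at 226, 307, 392 and 250.0 in aged hearts, against 110.5, 135, 127 and 181 in young hearts.

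Summed over the 25 genes with a symbol, the immediate-early group took 2172, 6633, 13550 and 2215 CPM in aged hearts, against 1802, 1104, 1775 and 1977 CPM in young hearts. Aged heart 7, which had the highest level, also had the second highest liver share, and aged heart 6, which came next, had 0.105% liver-specific counts. The part of liver RNA in these levels was not tested. Without the 3 libraries 5 of the genes were called higher, with adjusted p of 3.17e-05 for *fosab*, 0.00155 for *jdp2b*, 0.0021 for *ier2a*, 0.031 for *junbb* and 0.046 for *socs3a*, while *NR4A1* (0.263), *jund* (0.055) and *maff* (0.0778) were not called. In that fit 21 of the 24 changes were positive and 3 negative.

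**Figure D4:**
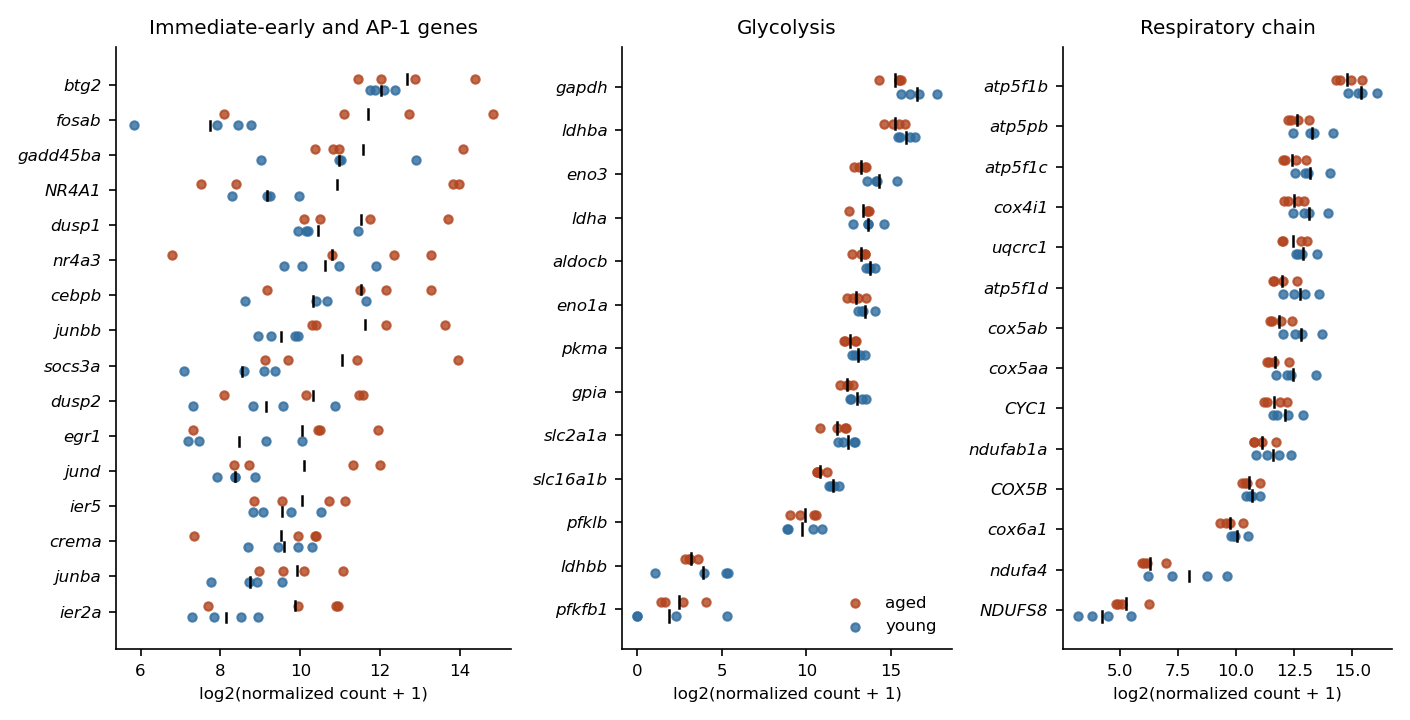
Normalized counts as log2(normalized count + 1) for the 16 most abundant immediate-early genes (left), 13 genes of glycolysis (middle) and 14 of the respiratory chain and ATP synthase (right), with one point per library, aged above young in each row, and a bar at the mean. The immediate-early genes spread widely among aged hearts, with *fosab* between 272 and 29095 normalized counts, whereas most metabolic genes shift by less than 1 on the log2 scale.

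To see which heart changes were shared, the same genes were read in aged and young surface brain, gut, liver and muscle, whose fits called 989 (6.46%), 1402 (9.84%), 608 (5.02%) and 600 (4.48%) genes. Of the 338 calls in heart that were not liver-high, 70 were also called in the same direction in brain, 51 in gut, 48 in liver and 43 in muscle. These were 20.7%, 15.1%, 14.2% and 12.7% of the heart calls and 7.08%, 3.64%, 7.89% and 7.17% of the calls of each tissue. Calls in the opposite direction numbered 1, 5, 0 and 4. In 215 of the 338 genes no other tissue was called in the same direction, and in 10 all 4 were. The labels do not say whether these tissues came from the same fish. Calls shared between tissues therefore cannot be taken as independent of each other.

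Among named genes, *niban1b* was higher with age in all 5 tissues, with log2 changes of 1.63 in brain, 3.32 in gut, 3.64 in liver and 1.64 in muscle beside 1.49 in heart. *enpp6* was also higher in aged liver (3.27) and muscle (2.83), and it was not called in brain (0.23) or gut (-0.62). *shank1* was lower in brain, gut and muscle. ENSAMXG00000037084 was also called lower in brain (-4.99) and gut (-1.69), and ENSAMXG00000030472 in brain (-6.97). ENSAMXG00000009106 was called higher in brain, gut and muscle, and ENSAMXG00000037024 in brain. Of the genes without any count in aged hearts, ENSAMXG00000030103 and ENSAMXG00000030367 were called lower in brain, gut and liver. ENSAMXG00000029963 and ENSAMXG00000042326 were called in no other surface tissue. Of the immediate-early genes, *fosab* was also called higher in brain and muscle, *junbb* in brain, and *socs3a* and *jund* in liver. *xirp2a*, *pdk4*, *unc5b* and *tjp2a* were called in no other surface tissue, although that does not show that their changes differ between tissues.

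**Figure D5:**
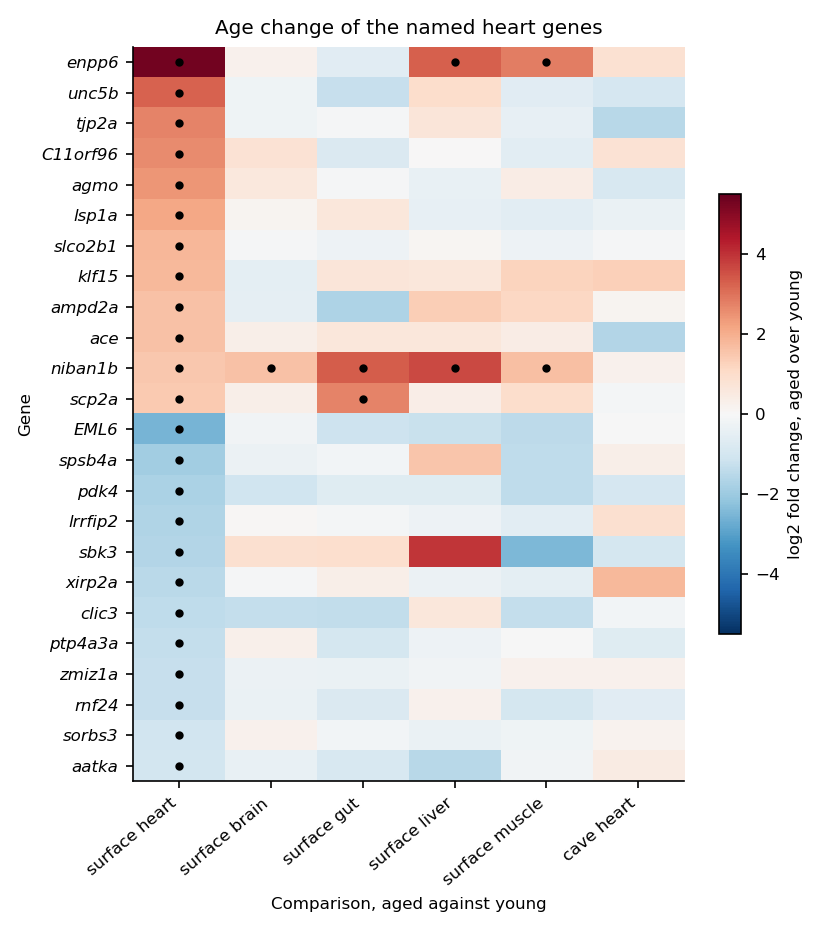
Log2 fold change of aged over young (colour) for the 24 named genes in rows, in surface heart, the other 4 surface tissues and cave heart in columns, with a dot where the DESeq2 adjusted p was under 0.05. *niban1b* is marked in all 5 surface tissues, *enpp6* in heart, liver and muscle, *scp2a* in heart and gut, and the other rows in surface heart only.

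Whether the age change differed between surface and cave hearts was tested as an interaction over 15 heart libraries. Cave young heart 1, with 78.7% liver-specific counts, was left out. The 4 cave hearts taken as aged carry one label that reads aged and another that reads young, and cave hearts had liver-specific shares of up to 11.4%, so these comparisons rest on that reading of the labels. The interaction was called for 200 genes (1.39%) by DESeq2, and for 7 by edgeR. Of the 338 surface calls, 2 were called in the same direction and 2 in the opposite direction in cave heart. The first count is 0.592% of the surface calls, where 0.657% of the 14603 genes tested were called in cave heart in either direction.

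*enpp6* stood at 270.5, 322.0, 222.2 and 131.4 CPM in aged surface hearts and 6.59, 4.39, 4.28 and 5.11 CPM in young surface hearts, and at 20.1, 9.98, 16 and 15.2 CPM in aged cave hearts and 9.56, 10.8 and 7.11 CPM in young cave hearts. Its age change was larger in surface hearts by 4.46 ± 0.54 on the log2 scale (adjusted p = 5.99e-13 by DESeq2, 0.00182 by edgeR). *xirp2a* had 824.1, 2948, 3966 and 4752 CPM in aged cave hearts and 1024, 833.8 and 1150.0 CPM in young cave hearts, a log2 difference of 1.76 ± 0.59 that did not pass the test (adjusted p = 0.171), with aged cave heart 5 below all young cave hearts. The difference of its age change between the populations was -3.24 ± 0.69 (DESeq2 adjusted p = 0.00107, edgeR adjusted p = 0.13). For *pdk4* (adjusted p = 0.713), *klf15* (0.82) and *niban1b* (0.171) the DESeq2 interaction was not called, with differences of -0.81 ± 0.72, 0.47 ± 0.60 and 1.27 ± 0.48.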

How the data were processed

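RNA of surface fish hearts was sequenced by a service provider, and the authors mapped reads with STAR to *A. mexicanus* assembly 2.0 and deposited raw counts per gene of Ensembl release 108 without normalization. Strand setting and treatment of multiply mapped reads are not given in the sources used here, so near-identical copies and overlapping genes are uncertain. Groups follow the age labels. Depth is given by the total counts of each library, and shares of counts carry counting error only.

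Aged and young hearts were fitted with DESeq2 1.42.0 in R 4.3.3 (Wald test, Benjamini-Hochberg adjusted p under 0.05), after the study's methods, with the quasi-likelihood test of edgeR 4.0.16 beside it. Single values were compared by exact permutation. The fits were also run on simulated counts, drawn with the fitted spread of each gene. Uneven liver RNA across libraries was not simulated, so that run cannot show its effect on the calls. Genes named are, among calls that are not liver-high, have a symbol, a mean normalized count of 50 or more and no overlap, the 12 largest rises and falls, then genes that edgeR also called (those without a symbol in part), the 2 largest rises and falls without a symbol, the 5 largest liver-high rises (no liver-high gene with a symbol fell), and called or leading list members. Members, lists and rules were chosen with earlier results of these data known. P-values set the difference between the ages against the variation between these libraries. Alternatives were other size factors and filters, all heart libraries in one fit, the liver share as a covariate, and libraries left out. Cave young heart 1 counted towards the heart medians that define liver-high genes. It was left out of the medians that define liver-specific genes. Of the fits, only the interaction named as including it held that library.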

Additional observations from a re-analysis of the deposited data

Results flagged for a closer look

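Within a group of 4 libraries, 10 values stood apart from the other 3 by Dixon's test, over 72 groups of values checked. For independent, normally distributed values chance alone gives about 1 in 20. These values are mostly counts of genes in the same 8 libraries, so that rate need not hold and is no measure of an excess. The liver-specific share of young heart 4 was 1.84%, with the others between 0.0770% and 0.302%. Aged heart 7 stood above the other aged hearts in *agmo* (207 normalized counts, others 54.7 to 71.9), *scp2a* (991, others 441 to 499), *pdk4* (4849.6, others 3235 to 3440.4) and *sb:cb1058* (738, others 9.81 to 134). Aged heart 8 stood above the others in ENSAMXG00000009106 (3590.1, others 64.2 to 634). Young heart 4 stood above the other young hearts in *slco2b1* (276, others 128 to 150.3) and *ace* (241, others 65.5 to 72.5). Young heart 1 stood above them in *enpp6* (106, others 44.0 to 49.4) and *zmiz1a* (376, others 223 to 243). These gene values are normalized counts, and in CPM some gaps narrowed. In CPM *zmiz1a* was between 21.8 and 23.6 in all 4 young hearts, and *enpp6* was at 6.59 in young heart 1 (others 4.28 to 5.11). For aged heart 7 the CPM of *pdk4* was 397.6 (others 298.7 to 394.9) and that of *scp2a* 81.25 (others 40.73 to 53.43). The gap of *agmo* stayed wide (16.98 CPM, others 6.277 to 7.318).

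The age change differed between surface and cave hearts, by the DESeq2 interaction, for 12 of the 33 genes named by the rule, where 1.39% of all genes tested were called. These genes were chosen for their change in surface hearts, which is one term of that difference. edgeR called 3 of the 12 (*enpp6*, ENSAMXG00000037084 and ENSAMXG00000030472). With cave young heart 1 included, *zmiz1a* was not called by DESeq2 (adjusted p = 0.0812) and *scp2a* received no adjusted p. The difference, surface minus cave on the log2 scale, was 4.46 for *enpp6*, 4.20 for *unc5b*, 4.26 for *tjp2a*, 3.28 for *agmo*, 1.59 for *scp2a* and 7.02 for *slc5a8l*. It was -3.24 for *xirp2a* and -1.52 for *zmiz1a*. Among genes without a symbol it was 10.2 for ENSAMXG00000037024, 9.07 for ENSAMXG00000009106, -11.4 for ENSAMXG00000037084 and -8.76 for ENSAMXG00000030472.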

How the results depend on the processing

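With all 8 libraries 419 genes were called, 247 higher and 172 lower, and 81 liver-high. edgeR gave 20, 7 higher and 13 lower, 0 of them liver-high, with 1480 genes at an unadjusted p under 0.05, and 12 in place of 123 heart calls shared with another tissue. The liver share as a covariate gave 248, 122 higher and 126 lower, with 20 liver-high and 184 shared with the main calls. Without the 3 libraries with liver transcripts there were 544, 235 higher and 309 lower, with 18 liver-high and 526 others, and edgeR then gave 8, 5 higher and 3 lower, with 0 liver-high (both that fit and total-count size factors, which gave 103 lower, were chosen after the data were seen). Leaving out single libraries gave 212 to 889 calls, 101 to 541 higher, 93 to 348 lower, 15 to 153 liver-high and 179 to 773 others. By library the calls were 230 without aged heart 7 (101 higher, 129 lower), 212 without young heart 2, 279 without young heart 3 and 889 without young heart 4. Liver-high calls were 144 without aged heart 5, 153 without aged heart 6, 15 without aged heart 7, 25 without aged heart 8, 33 without young heart 2 and 37 without young heart 3. The split was 293 higher and 128 lower without aged heart 5. The liver share differed by 4.86 percentage points between the ages, and by 1.21 without aged heart 8. The interaction gave 200 calls, 227 with cave young heart 1 and 7 by edgeR. *cyp3a65* (ENSAMXG00000012560), a liver cytochrome, was 3.85 with 8 libraries, -1.04 without the 3, -0.080 with the covariate and -0.96 by edgeR without the 3. The cause was not tested. No named gene turned direction otherwise, and of 67 named or listed calls 45 passed without the 3 libraries and 20 by edgeR. No paired analysis was possible because aged and young hearts share no replicate number. Depth limits the genes with few counts, and the missing symbols limit the lists.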
